A study of Mus musculus with 12 samples.

Results

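The nuclear genes of oxidative phosphorylation were followed in the mouse neuroblastoma line N2a, given extracellular vesicles from brain (BDEVs). A gene belonged to the set if its symbol was that of a subunit of complexes I to V or of cytochrome c (names beginning Nduf with a to c, s or v and a number, Sdha to Sdhd, Uqcr, Cyc1, Cycs, Cox4 to Cox8, or Atp5), if both deposited expression tables listed it, and if its mean over 12 libraries was at least 1 FPKM. FPKM counts fragments relative to transcript length and to the mapped fragments of the library, so levels can be set side by side between genes. Of 86 names that matched among 24318 genes listed, 82 were members: 35 of complex I, 4 of complex II, 9 of complex III, 16 of complex IV, 15 of complex V, cytochrome c (Cycs), and 2 genes, Atp5s and Atp5sl, that carry the Atp5 name but encode no subunit. The 16 of complex IV include Cox7a2l, counted there by its name though its role is that of a supercomplex factor. The 4 names left out were Ndufa4l2 with a mean of 0.358 FPKM, Cox6b2 with 0.0277 FPKM, and Cox8b and Cox8c at 0. The members nearest above the limit were Cox6a2 with 2.12 FPKM, Atp5s with 3.75 FPKM and Cox4i2 with 4.63 FPKM.

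The 12 libraries were of polyadenylated RNA and fell into 3 groups of 4: N2a cells given SE-BDEV, N2a cells given CON-BDEV, and N2a cells given Vehicle. By the title of the series SE is status epilepticus, a prolonged seizure, and the subject is what brain vesicles do after it. CON is not spelled out, and the sources used here do not give dose, duration or the animals behind the vesicles. All groups share 1 transformed line, which is not a neuron. Nothing in the labels tells whether replicates are separate cultures, so a p-value here measures the spread among libraries that may be technical repeats.

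Oxidative phosphorylation is the chain of protein complexes in the inner mitochondrial membrane that turns the energy of NADH and succinate into ATP. Complexes I and II pass electrons to ubiquinone, complex III passes them to cytochrome c, complex IV passes them to oxygen, and the proton gradient built by complexes I, III and IV drives complex V, the ATP synthase. Most subunits are encoded in the nucleus and imported, while a small set is encoded by mitochondrial DNA, and that set is not analysed here. Neurons depend on this pathway for most of their ATP, and tumour lines keep it beside a high rate of glycolysis.

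Depth, estimated from the lowest FPKM values read as 1 fragment, was 13000000 to 15100000 fragments per SE-BDEV library, 12900000 to 14300000 fragments per CON-BDEV library and 14800000 to 16100000 fragments per Vehicle library. The values are approximate, since transcript lengths came from another annotation than the authors'. Of 11 markers of sympathetic neuroblastoma, 10 had a mean of at least 1 FPKM in each group. Their summed level was 622 to 664 FPKM in SE-BDEV, 628 to 666 FPKM in CON-BDEV and 549 to 581 FPKM in Vehicle. Of the 10 tested, 8 had a higher and 2 a lower value than Vehicle in SE-BDEV, and the counts were the same in CON-BDEV. Of the 10, limma called 3 higher in SE-BDEV over Vehicle (Dbh, Ddc and Chga), where 0.919% of all genes tested were called. It called 6 higher in CON-BDEV over Vehicle, where 2.84% were. The 3 calls of SE-BDEV were lost with no filter on low values (limma adjusted p 0.0607 to 0.0678) and without any 1 Vehicle library (0.0563 to 0.145). That of Chga was also lost with the replicate block (0.0539). That of Ddc was lost with it too, with a pseudocount of 0.1 and without SE-BDEV replicate 1, 3 or 4 (0.05275 to 0.129). In CON-BDEV the call of Chga was lost with the replicate block (0.0544). Ddc was lost there with the block, without CON-BDEV replicate 4 and without Vehicle replicate 2 or 3 (0.05635 to 0.0607). The part of the marker shift in the members' values was not tested. The lists of 5 markers each for astrocytes, oligodendrocytes, microglia, endothelium and forebrain neurons summed to at most 6.84 FPKM in any library.

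The members were among the most abundant transcripts of these cells. Their median level was 154 FPKM, 43 of the 82 were among the 500 highest genes of the 24318 listed, 62 were among the 1000 highest, and 59 exceeded 100 FPKM. Together they took 3.91 ± 0.0557% of the summed FPKM in SE-BDEV, 3.96 ± 0.0631% of it in CON-BDEV and 3.88 ± 0.0387% of it in Vehicle (SD, n = 4 each). Median levels went up along the chain, with 124 FPKM for the members of complex I, 132 for complex II, 209 for complex III, 312 for complex IV and 385 for complex V. The highest member was Atp5b, the catalytic beta subunit of the ATP synthase, with 1628 FPKM, and all 15 members of complex V were among the 500 highest genes. Within complex I levels ran between 12.1 FPKM for Ndufa11, a membrane-arm subunit, and 390 FPKM for Ndufb9, another accessory subunit. Complex IV had the widest range, between 2.12 FPKM for Cox6a2 and 893 FPKM for Cox4i1, the main form of its largest nuclear subunit. The plot of levels shows that the 12 libraries lay close together for most members. The members with the lowest levels spread more, and so did some abundant ones, among them Ndufs5, Atp5e and Cox5a.

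**Figure D1:**
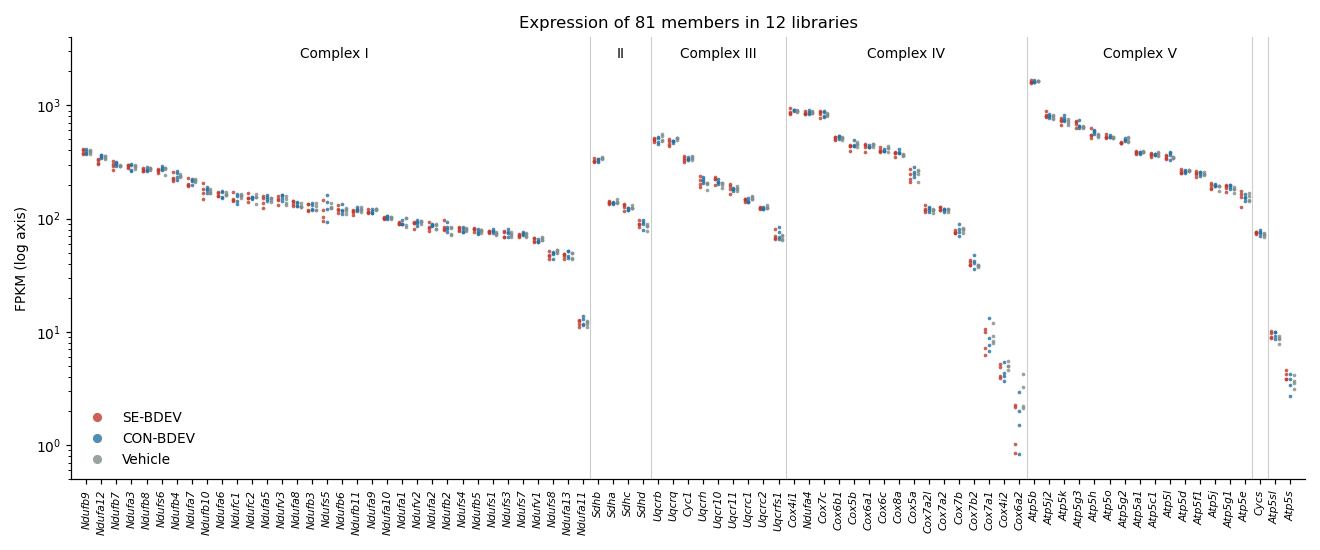
FPKM (log axis) of 81 of the 82 members in each of the 12 libraries, ordered by complex and, within it, by mean level; points are single libraries of SE-BDEV, CON-BDEV and Vehicle, and Cycs, Atp5sl and Atp5s stand at the right. Atp5b tops the plot at a mean of 1628 FPKM, and Cox6a2, at 2.12 FPKM, has the widest scatter.

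No member passed the test in any of the 3 comparisons. With limma on log2(FPKM + 1), 0 of 82 members had an adjusted p under 0.05 in SE-BDEV against Vehicle, where 0.919% of the 11311 genes tested were called. There 8 members, or 9.76%, had an unadjusted p under 0.05, against 14.8% of all genes tested. The authors' deposited Cuffdiff table gave a q under 0.05 to 0 members, against 1.17% of its tested genes. In CON-BDEV against Vehicle, limma called 0 of 82 members, where 2.84% of 11320 genes were called; 11 members, or 13.4%, had an unadjusted p under 0.05, against 19.1% of all genes tested. The authors' deposited table called 0 members, against 1.8% of its tested genes. In SE-BDEV against CON-BDEV, limma called 0 members and 0% of 11312 genes, with 2 members, or 2.44%, at an unadjusted p under 0.05, against 2.62% of all genes; a Cuffdiff table of this comparison was not used here. The smallest adjusted p of a member was 0.179 for Ndufa12 in SE-BDEV against Vehicle, 0.0929 for Uqcrq in CON-BDEV against Vehicle and 1.00 for every member in SE-BDEV against CON-BDEV (limma). In bulk samples a change in the number of cells of a kind and a change in RNA per cell cannot be told apart.

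The differences were small on the scale of the test. The median log2 fold change of the members was −0.00605 in SE-BDEV over Vehicle, with 35 higher and 47 lower, against a median of 0.00942 over all genes tested. In CON-BDEV over Vehicle the median was 0.00520, with 43 higher and 39 lower, against 0.00434 over all genes. In SE-BDEV over CON-BDEV it was −0.0121, with 32 higher and 50 lower, against 0.00503 over all genes; with median scaling 23 were higher and 59 lower, and without CON-BDEV replicate 1 the counts were 42 and 40. The 95% interval of the log2 fold change lay within 0.32 in either direction for 78 of 82 members in SE-BDEV over Vehicle, which is 95.1%, against 85.1% of all genes tested. The same held for 79 members in CON-BDEV over Vehicle, or 96.3% against 87.2%, and for 78 in SE-BDEV over CON-BDEV, or 95.1% against 90.9%. This bound was chosen for description. Cox6a2 and Cox7a1 reached past it in every comparison, Ndufs5 and Atp5s in both comparisons of SE-BDEV, and Cox4i2 in CON-BDEV over Vehicle. The 2 comparisons with Vehicle share the same 4 Vehicle libraries, so their values are given side by side and not counted as separate evidence.

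**Figure D2:**
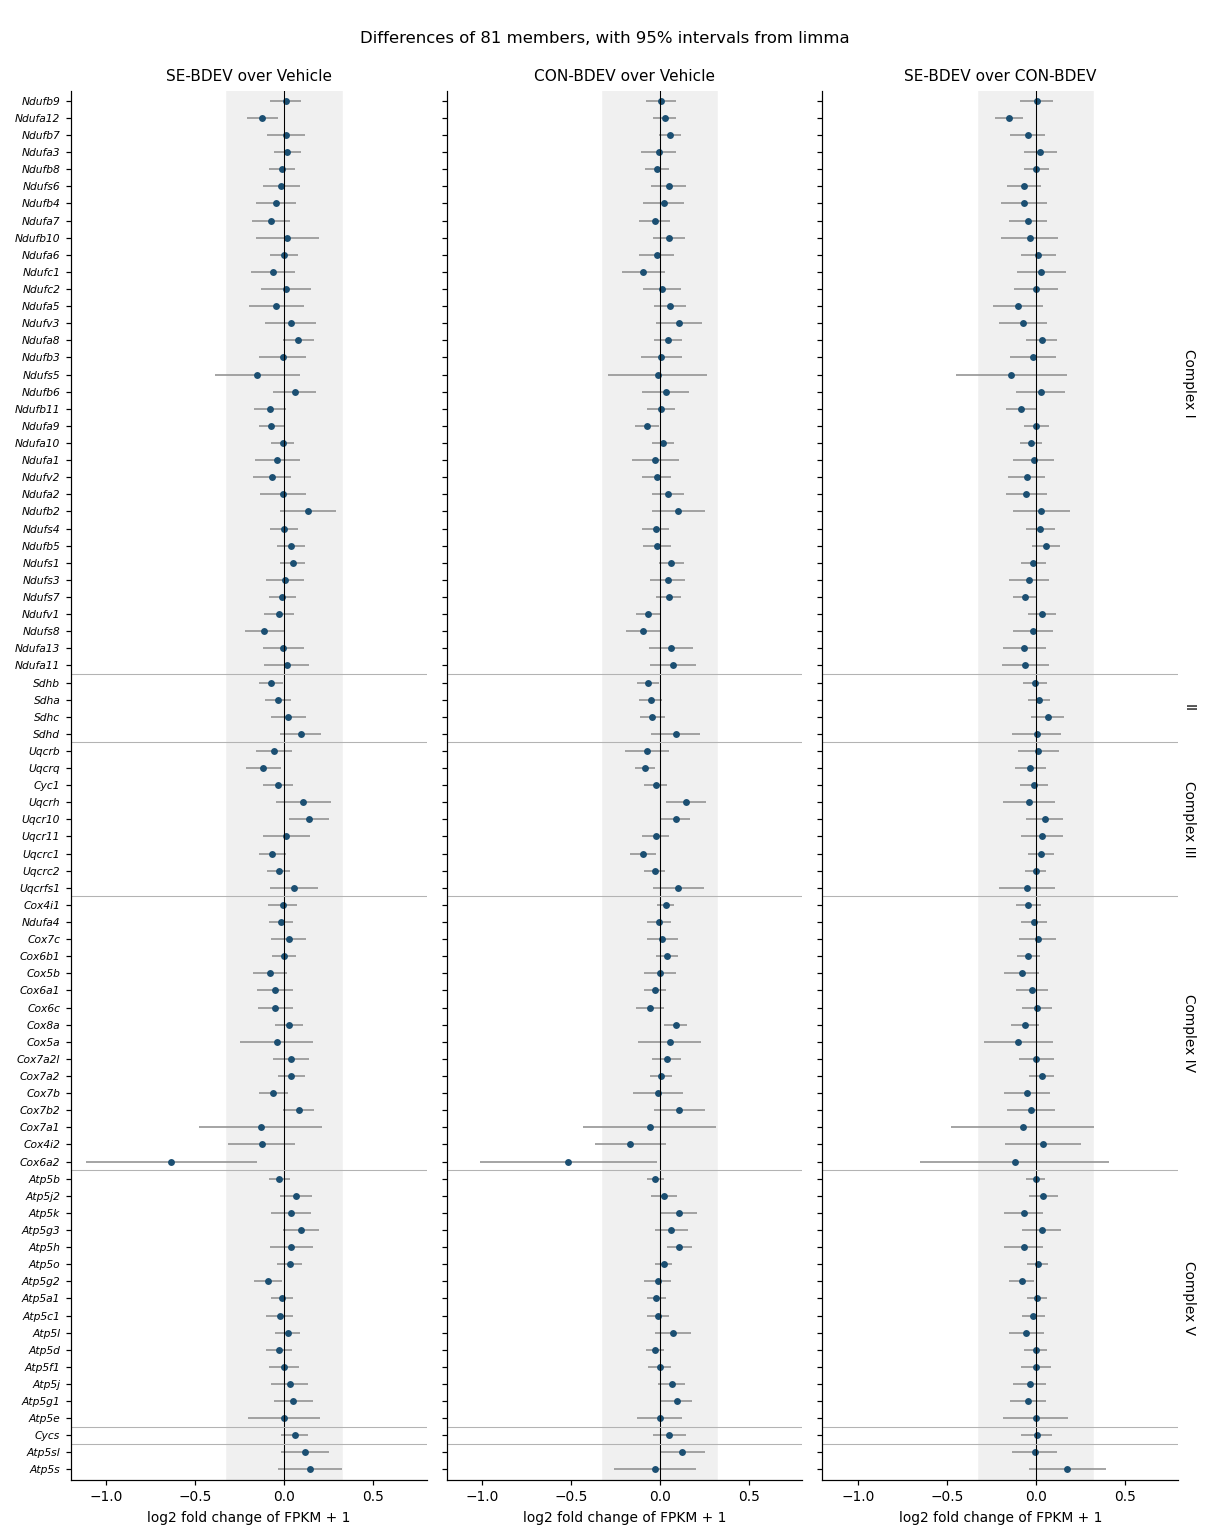
Log2 fold change of FPKM + 1 for 81 of the 82 members (rows, by complex and mean level) in SE-BDEV over Vehicle, CON-BDEV over Vehicle and SE-BDEV over CON-BDEV; points are limma estimates over 4 libraries a group, bars their 95% intervals, and the grey band marks 0.32 on the log2 scale in either direction. Nearly all intervals stay inside the band (78, 79 and 78 over all 82 members), and Cox6a2 stands apart with −0.63 in SE-BDEV over Vehicle and −0.52 in CON-BDEV over Vehicle.

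In each comparison 2 of the 82 members had groups of libraries that did not overlap. As a share this was below that of all genes in both comparisons with Vehicle, and above it in SE-BDEV against CON-BDEV. In SE-BDEV against Vehicle 2 members had no overlap, Cox7b2 (higher) and Atp5g2 (lower), where 10.2% of all genes tested had none. In CON-BDEV against Vehicle there were also 2, Cox8a (higher) and Uqcrq (lower), where 11.9% of all genes had none. In SE-BDEV against CON-BDEV there were 2, Ndufa12 and Atp5g2, both lower, where 1.39% of all genes had none. None of these passed the test.

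Complex I, the NADH dehydrogenase, takes electrons from NADH through a flavin and a row of iron-sulphur clusters. The set holds its 7 nuclear core subunits, which carry the flavin and the clusters, and 28 accessory subunits. In SE-BDEV over Vehicle 13 of the 35 members were higher and 22 lower, with a median log2 fold change of −0.0083. In CON-BDEV over Vehicle 21 were higher and 14 lower, with a median of 0.0100. Among the core subunits Ndufs8, which holds a pair of clusters on the way to the quinone site, had the most negative value, −0.11 ± 0.049 in SE-BDEV over Vehicle (standard error; limma adjusted p = 0.323) and −0.093 ± 0.045 in CON-BDEV over Vehicle (limma adjusted p = 0.287). It had 44.1, 48.0, 47.0 and 51.8 FPKM in SE-BDEV replicates 1 to 4, 49.9, 50.4, 49.1 and 44.0 FPKM in CON-BDEV, and 50.6, 53.1, 53.0 and 49.6 FPKM in Vehicle. The highest SE-BDEV library and the highest CON-BDEV libraries lay within the Vehicle range. The other core subunits ranged from −0.070 for Ndufv2 to 0.047 for Ndufs1 in SE-BDEV over Vehicle.

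The largest difference in complex I between SE-BDEV and CON-BDEV was that of Ndufa12 (chromosome 10, 93661753 to 93683693 on mm9), an accessory subunit of the matrix arm. Ndufa12 had 307, 306, 338 and 330 FPKM in SE-BDEV replicates 1 to 4, 366, 345, 349 and 361 FPKM in CON-BDEV, and 344, 358, 338 and 356 FPKM in Vehicle. Every SE-BDEV library lay below every CON-BDEV library, and 3 of the 4 lay below every Vehicle library. Its log2 fold change was −0.15 ± 0.037 in SE-BDEV over CON-BDEV (standard error; limma adjusted p = 1.00), and the group means differed by −9.83%. In SE-BDEV over Vehicle it was −0.12 ± 0.039 (limma adjusted p = 0.179), and in CON-BDEV over Vehicle 0.025 ± 0.029 (limma adjusted p = 0.684).

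Ndufs5, an accessory subunit of the membrane arm's outer face, had the most negative value of complex I in SE-BDEV over Vehicle and the widest scatter. It had 104, 147, 120 and 95.2 FPKM in SE-BDEV replicates 1 to 4, 139, 122, 161 and 94.2 FPKM in CON-BDEV, and 138, 126, 124 and 124 FPKM in Vehicle. The libraries of SE-BDEV and CON-BDEV lay on both sides of the Vehicle range, with replicate 4 lowest in each. The log2 fold change was −0.15 ± 0.11 in SE-BDEV over Vehicle (standard error; limma adjusted p = 0.549) and −0.014 ± 0.13 in CON-BDEV over Vehicle (limma adjusted p = 0.968). Single libraries moved both values: the difference over Vehicle was −0.27 without SE-BDEV replicate 2 (limma adjusted p = 0.0714) and −0.062 without SE-BDEV replicate 4, and in CON-BDEV it lay between −0.13 without replicate 3 and 0.13 without replicate 4. At the other end stood Ndufb2, a small membrane-arm subunit, with 0.13 ± 0.071 in SE-BDEV over Vehicle (limma adjusted p = 0.407) and 0.10 ± 0.067 in CON-BDEV over Vehicle (limma adjusted p = 0.437). Its levels were 97.4, 81.2, 79.6 and 84.0 FPKM in SE-BDEV, 84.3, 93.6, 80.3 and 76.6 FPKM in CON-BDEV, and 84.6, 81.7, 73.5 and 71.4 FPKM in Vehicle, so the groups overlapped.

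Complex II, succinate dehydrogenase, is also an enzyme of the citric acid cycle, and all its subunits are nuclear. Sdha binds the flavin, Sdhb holds the iron-sulphur clusters, and Sdhc and Sdhd anchor them in the membrane. Sdhb averaged 326 ± 9.80 FPKM in SE-BDEV, 328 ± 11.3 FPKM in CON-BDEV and 344 ± 6.31 FPKM in Vehicle (SD, n = 4 each), which made it the most abundant of the 4. Its log2 fold change was −0.076 ± 0.031 in SE-BDEV over Vehicle (standard error; limma adjusted p = 0.283) and −0.069 ± 0.029 in CON-BDEV over Vehicle (limma adjusted p = 0.226). Sdha had −0.035 and −0.054 in the same order, and Sdhc had 0.023 and −0.043. Sdhd, the least abundant, had 0.092 in SE-BDEV over Vehicle and 0.088 in CON-BDEV over Vehicle, and its groups overlapped in both. The catalytic subunits were thus lower and Sdhd higher than in Vehicle in both vesicle groups, and none of the 4 passed the test.

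Complex III, the cytochrome bc1 complex, moves electrons through the cytochrome c1 of Cyc1 and the iron-sulphur protein of Uqcrfs1, held in a frame of core proteins and small subunits. Its small subunits had values of opposite sign, and none passed the test. Uqcrq (chromosome 11, 53242449 to 53244333 on mm9), which binds next to the mitochondrially encoded cytochrome b, had 436, 452, 485 and 507 FPKM in SE-BDEV replicates 1 to 4, 486, 464, 483 and 484 FPKM in CON-BDEV, and 514, 513, 496 and 512 FPKM in Vehicle. All 4 CON-BDEV libraries and 3 of 4 SE-BDEV libraries lay below every Vehicle library. Its log2 fold change was −0.12 ± 0.045 in SE-BDEV over Vehicle (standard error; limma adjusted p = 0.258) and −0.086 ± 0.025 in CON-BDEV over Vehicle (limma adjusted p = 0.0929).

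Uqcrh, the acidic hinge protein between cytochromes c1 and c, had 220, 189, 239 and 203 FPKM in SE-BDEV, 232, 205, 214 and 222 FPKM in CON-BDEV, and 178, 205, 201 and 204 FPKM in Vehicle. Its values were 0.11 ± 0.071 in SE-BDEV over Vehicle (standard error; limma adjusted p = 0.509) and 0.15 ± 0.051 in CON-BDEV over Vehicle (limma adjusted p = 0.151), and Vehicle replicate 1 stood apart below all other libraries. Uqcr10, a subunit of a single membrane helix, averaged 219 ± 14.7 FPKM in SE-BDEV, 211 ± 8.30 FPKM in CON-BDEV and 198 ± 8.75 FPKM in Vehicle (SD, n = 4 each), with 0.14 ± 0.051 in SE-BDEV over Vehicle (limma adjusted p = 0.237) and 0.087 ± 0.038 in CON-BDEV over Vehicle (limma adjusted p = 0.243). The core protein Uqcrc1 had −0.067 in SE-BDEV over Vehicle and −0.095 in CON-BDEV over Vehicle (limma adjusted p = 0.402 and 0.151). Cyc1 had −0.036 and −0.026, and Uqcrfs1 had 0.054 and 0.10, all with groups that overlapped. Cytochrome c itself, the carrier between complexes III and IV, was at 75.02 ± 1.07 FPKM in SE-BDEV, 74.8 ± 4.26 FPKM in CON-BDEV and 72.1 ± 2.53 FPKM in Vehicle (SD, n = 4 each). Across complex III, 4 members were higher and 5 lower in SE-BDEV over Vehicle, and 3 were higher and 6 lower in CON-BDEV over Vehicle.

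Complex IV, cytochrome c oxidase, has nuclear subunits with paralogs that mark tissues: Cox4i2 is known from lung and oxygen sensing, Cox6a2 and Cox7a1 from heart and skeletal muscle, and Cox7b2 from testis. N2a cells used mainly the general forms. Cox4i2 made up 0.508 ± 0.0639% of Cox4i2 plus Cox4i1 in SE-BDEV, 0.480 ± 0.0867% of the pair in CON-BDEV and 0.560 ± 0.0444% of it in Vehicle (SD of the percentage, n = 4 each). Cox6a2 was 0.360 ± 0.152% of Cox6a2 plus Cox6a1 in SE-BDEV, 0.413 ± 0.192% of the pair in CON-BDEV and 0.665 ± 0.223% of it in Vehicle. Cox7a1 was 6.50 ± 1.55%, 7.06 ± 2.13% and 7.26 ± 1.17% of Cox7a1 plus Cox7a2 in SE-BDEV, CON-BDEV and Vehicle. The exception was Cox7b2, which made up 34.8 ± 1.10% of Cox7b2 plus Cox7b in SE-BDEV, 34.5 ± 2.14% of the pair in CON-BDEV and 32.6 ± 1.06% of it in Vehicle. Ndufa4, first described as a subunit of complex I and now placed in complex IV, was at 861 ± 25.2 FPKM in SE-BDEV, 868 ± 36.6 FPKM in CON-BDEV and 872 ± 16.2 FPKM in Vehicle, against under 1 FPKM for its paralog Ndufa4l2 in every library.

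Cox6a2 had the largest fold change of all members. It had 1.03, 0.855, 2.19 and 2.24 FPKM in SE-BDEV replicates 1 to 4, 0.828, 2.00, 1.49 and 2.94 FPKM in CON-BDEV, and 3.29, 4.24, 2.20 and 2.14 FPKM in Vehicle. The groups overlapped, since Vehicle replicates 3 and 4 lay at the level of SE-BDEV replicates 3 and 4. The log2 fold change was −0.63 ± 0.22 in SE-BDEV over Vehicle (standard error; limma adjusted p = 0.207) and −0.52 ± 0.23 in CON-BDEV over Vehicle (limma adjusted p = 0.245), and in the authors' deposited table −0.91 (q = 0.209) and −0.71 (q = 0.270). In the lowest library its level stood for an estimated 8 fragments, so counting error alone is large. The authors' deposited table lists its locus as chromosome 7, 135317459 to 135349880 on mm9.

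Cox7b2 (chromosome 5) had 43.1, 39.1, 39.1 and 41.0 FPKM in SE-BDEV, 42.0, 36.2, 47.7 and 40.3 FPKM in CON-BDEV, and 38.9, 38.4, 37.5 and 38.6 FPKM in Vehicle. All SE-BDEV libraries lay above all Vehicle libraries, by little, while CON-BDEV spread to both sides. The log2 fold change was 0.080 ± 0.039 in SE-BDEV over Vehicle (standard error; limma adjusted p = 0.374) and 0.11 ± 0.066 in CON-BDEV over Vehicle (limma adjusted p = 0.404). Cox8a, a small subunit of a single membrane helix (chromosome 19, 7289647 to 7292106 on mm9), had 376, 376, 350 and 389 FPKM in SE-BDEV, 410, 390, 377 and 380 FPKM in CON-BDEV, and 360, 365, 376 and 363 FPKM in Vehicle. CON-BDEV lay above Vehicle in 4 of 4 libraries (0.088 ± 0.030; limma adjusted p = 0.143), and SE-BDEV overlapped it (0.026 ± 0.036; limma adjusted p = 0.776). The abundant subunits differed little, with −0.0098 and 0.032 for Cox4i1, and 0.024 and 0.013 for Cox7c, in SE-BDEV and CON-BDEV over Vehicle. Of the 16 members, 5 were higher and 11 lower in SE-BDEV over Vehicle, and 8 were higher and 8 lower in CON-BDEV over Vehicle.

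**Figure D3:**
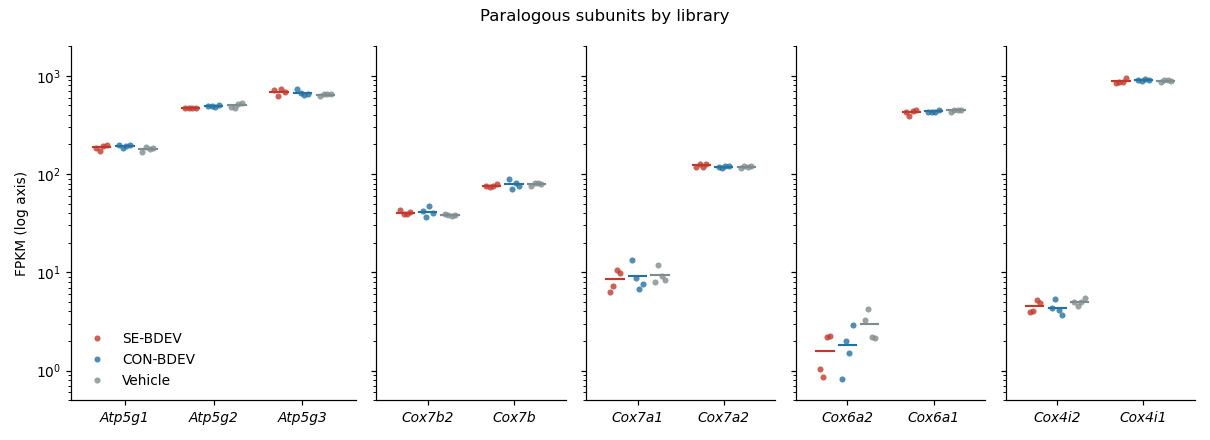
FPKM (log axis) of paralogous subunits of complexes V (Atp5g1 to Atp5g3) and IV (the Cox pairs) in each library; points are single libraries of SE-BDEV, CON-BDEV and Vehicle and short lines their group means. Atp5g3 lies above Atp5g2 and Atp5g2 above Atp5g1 in all 12 libraries, and Cox7b2 reaches 34.8% of the pair's sum in SE-BDEV, while Cox4i2 and Cox6a2 stay under 1% of theirs.

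Complex V, the ATP synthase, joins the catalytic F1 head to a membrane part whose ring of c subunits turns as protons pass. Atp5g1, Atp5g2 and Atp5g3 all encode the c subunit, the same mature protein behind different import signals. Atp5g3 exceeded Atp5g2, and Atp5g2 exceeded Atp5g1, in 12 of 12 libraries. Atp5g3 gave between 48.0% and 52.5% of their sum, Atp5g2 between 33.8% and 38.5%, and Atp5g1 between 13.2% and 14.7%. The bases before their transcription starts are shown because the transcripts of the 3 genes, which encode 1 mature protein, stood at different levels. The part of these bases in the levels was not tested. Those of Cox6a1 are shown as an example with matches to both motifs found most often among the members. In the full window searched, Atp5h, Atp5k, Atp5l, Sdhd and Uqcr11 matched both as well. Each line gives the 150 bases before the start, 5′ to 3′ on the strand of the gene, from RefSeq on GRCm38.p6: chr11:96075632-96075781, chr15:102671048-102671197 and chr2:73911327-73911476 for the Atp5g genes and chr5:115348959-115349108 for Cox6a1, all on the minus strand. Capitals mark matches to the motifs of NRF1 (GCGCANGCG) or GABP (CCGGAAG) on either strand.
Atp5g1: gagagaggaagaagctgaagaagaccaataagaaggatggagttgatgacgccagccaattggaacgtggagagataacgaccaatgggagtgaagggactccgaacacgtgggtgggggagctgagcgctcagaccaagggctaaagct
Atp5g2: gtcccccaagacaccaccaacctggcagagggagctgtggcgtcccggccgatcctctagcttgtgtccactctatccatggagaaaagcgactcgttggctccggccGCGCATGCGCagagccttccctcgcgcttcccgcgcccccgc
Atp5g3: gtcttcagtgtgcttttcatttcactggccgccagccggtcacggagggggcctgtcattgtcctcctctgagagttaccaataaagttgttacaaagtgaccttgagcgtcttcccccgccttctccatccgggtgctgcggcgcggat
Cox6a1: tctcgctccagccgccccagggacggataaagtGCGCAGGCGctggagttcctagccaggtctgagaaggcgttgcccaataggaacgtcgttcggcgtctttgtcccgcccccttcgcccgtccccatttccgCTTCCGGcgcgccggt

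The Atp5g2 promoter held the NRF1 motif in both orientations over the same bases, while the stretches of Atp5g1 and Atp5g3 held none of the motifs. In the full window searched, Atp5g3 held an NRF1 match outside the bases shown, and Atp5g1 held no match. The share of G and C was 66.7% in Atp5g2, 56.7% in Atp5g3 and 53.3% in Atp5g1, with 14, 9 and 6 CG pairs.

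Atp5g2 (chromosome 15, 102493298 to 102501478 on mm9) had 466, 469, 471 and 465 FPKM in SE-BDEV replicates 1 to 4, 492, 490, 484 and 510 FPKM in CON-BDEV, and 484, 475, 515 and 523 FPKM in Vehicle. The 4 SE-BDEV libraries lay close together and below every library of CON-BDEV and of Vehicle. Its log2 fold change was −0.092 ± 0.035 in SE-BDEV over Vehicle (standard error; limma adjusted p = 0.254) and −0.078 ± 0.033 in SE-BDEV over CON-BDEV (limma adjusted p = 1.00), and −0.014 ± 0.034 in CON-BDEV over Vehicle (limma adjusted p = 0.857). Atp5g3 had 720, 626, 729 and 679 FPKM in SE-BDEV, 740, 662, 636 and 654 FPKM in CON-BDEV, and 625, 649, 645 and 654 FPKM in Vehicle. It was the member that passed when 1 library was left out of SE-BDEV against Vehicle: without SE-BDEV replicate 2 its log2 fold change was 0.14 (limma adjusted p = 0.0474), against 0.095 ± 0.046 (limma adjusted p = 0.368) with all libraries. Atp5g1 had 0.051 ± 0.049 in SE-BDEV over Vehicle and 0.093 ± 0.039 in CON-BDEV over Vehicle (limma adjusted p = 0.666 and 0.228).

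Of the other members of complex V, Atp5h, the d subunit of the peripheral stalk, came nearest to the threshold. Its levels were 552, 512, 545 and 627 FPKM in SE-BDEV, 607, 559, 595 and 579 FPKM in CON-BDEV, and 525, 549, 563 and 534 FPKM in Vehicle. In CON-BDEV over Vehicle the log2 fold change was 0.11 ± 0.032 (standard error; limma adjusted p = 0.101), and 0.13 (limma adjusted p = 0.0465) without CON-BDEV replicate 2, the lowest library of that group. In SE-BDEV over Vehicle it was 0.039 ± 0.055 (limma adjusted p = 0.785). Atp5k, the small e subunit of the membrane part, had 0.037 and 0.11 in SE-BDEV and CON-BDEV over Vehicle. The 5 subunits of the F1 head, Atp5a1, Atp5b, Atp5c1, Atp5d and Atp5e, all had values just under 0 with all libraries. These lay between −0.028 and −0.0039 in SE-BDEV over Vehicle and between −0.027 and −0.0022 in CON-BDEV over Vehicle. The shared sign did not hold under every alternative. In SE-BDEV over Vehicle Atp5e ranged from −0.067 to 0.092 and Atp5a1 from −0.027 to 0.00089. In CON-BDEV over Vehicle Atp5e ranged from −0.038 to 0.044 and Atp5c1 from −0.032 to 0.0048. Atp5b and Atp5d stayed under 0 in both comparisons, which share their Vehicle libraries. Atp5b averaged 1618 ± 35.0 FPKM in SE-BDEV, 1619 ± 30.5 FPKM in CON-BDEV and 1649 ± 9.98 FPKM in Vehicle (SD, n = 4 each), with a log2 fold change of −0.027 ± 0.027 in SE-BDEV over Vehicle (limma adjusted p = 0.684). Of the 15 members, 8 were higher and 7 lower than Vehicle in SE-BDEV, and the counts were the same in CON-BDEV.

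The complexes were then set side by side by library, as the mean over their members of the log2 difference from the Vehicle mean. Complex I lay at −0.016 ± 0.034 in SE-BDEV and 0.011 ± 0.029 in CON-BDEV, against a spread of 0.016 among Vehicle libraries (SD, n = 4 each). Complex II lay at 0.0011 ± 0.044 in SE-BDEV and −0.019 ± 0.041 in CON-BDEV, against 0.038 in Vehicle. Complex III lay at −2.2e-05 ± 0.045 and 0.00015 ± 0.056, against 0.031 in Vehicle. These differences were smaller than the spread between libraries of the vesicle groups.

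Complex IV had the lowest mean, −0.063 ± 0.060 in SE-BDEV and −0.029 ± 0.031 in CON-BDEV, against a spread of 0.039 among Vehicle libraries (SD, n = 4 each). This rested on its 3 members under 10 FPKM, Cox6a2, Cox4i2 and Cox7a1. Over the other 13 members, an alternative chosen after the data were seen, the mean was −0.0082 ± 0.031 in SE-BDEV and 0.021 ± 0.038 in CON-BDEV, against 0.022 in Vehicle. Complex V lay at 0.011 ± 0.054 in SE-BDEV and 0.030 ± 0.031 in CON-BDEV, against 0.030 in Vehicle. Over all genes tested the means were 0.0037 ± 0.010 in SE-BDEV and 0.0017 ± 0.0053 in CON-BDEV, against 0.0070 in Vehicle.

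Libraries differed more than groups did. SE-BDEV replicate 2 was the lowest SE-BDEV library in each of the 5 complexes, with −0.059 over the 82 members, and SE-BDEV replicate 4 had 0.036. Over the members of complex IV above 10 FPKM, SE-BDEV replicate 3 was lowest instead, with −0.045, and replicate 2 had −0.015. CON-BDEV replicate 1 was the highest CON-BDEV library in each complex, with 0.043 over the members. The estimated depth of these libraries was 13700000, 15100000 and 14300000 fragments, and the part of depth in these offsets was not tested.

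**Figure D4:**
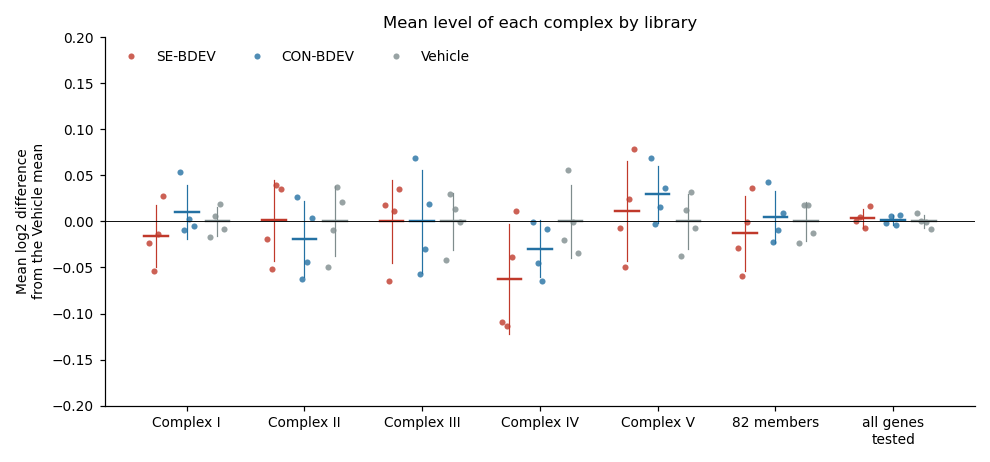
Mean over members of the log2 difference from the Vehicle mean, for each complex, for the 82 members and for all genes tested; points are the 4 libraries of SE-BDEV, CON-BDEV and Vehicle, short lines their means and thin bars ± 1 SD. Groups overlap in every complex, and the lowest mean, −0.063 for complex IV in SE-BDEV, is −0.0082 over its 13 members above 10 FPKM.

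Within groups the members varied less than the typical gene. The median SD of log2(FPKM + 1) over the members was 0.0743 among SE-BDEV libraries, 0.0597 among CON-BDEV libraries and 0.0496 among Vehicle libraries, where all genes tested had 0.0898, 0.0739 and 0.0565. An SD above 0.2 was seen in 4 members in SE-BDEV (Atp5e, Cox6a2, Cox7a1 and Ndufs5), 4 in CON-BDEV (Atp5s, Cox6a2, Cox7a1 and Ndufs5) and 2 in Vehicle (Cox6a2 and Cox7a1). The part of the members' abundance in this was not tested.

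The 2 genes that share only the name were low and did not pass. Atp5s had 3.79, 4.62, 4.21 and 3.80 FPKM in SE-BDEV, 2.71, 3.38, 4.21 and 3.86 FPKM in CON-BDEV, and 4.13, 3.15, 3.67 and 3.51 FPKM in Vehicle, with the largest positive value of all members in SE-BDEV over CON-BDEV, 0.18 ± 0.10 (standard error; limma adjusted p = 1.00). Atp5sl, known to take part in the assembly of complex I, had 0.12 ± 0.061 in SE-BDEV over Vehicle and 0.13 ± 0.058 in CON-BDEV over Vehicle (limma adjusted p = 0.399 and 0.270).

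Some sequence motifs, which the choice of names had not used, were more frequent in the members' promoters than in all promoters. RefSeq promoters on GRCm38.p6, from 250 bases before to 50 after the first listed start, were matched for 68 of the 82 members. NRF1 and GABP are transcription factors known to control nuclear genes of the respiratory chain, and YY1 is known to act with them. The NRF1 motif GCGCANGCG was found in 20 of the 68, which is 29.4%, against 6.47% of 27025 promoters. The GABP motif CCGGAAG was found in 15, or 22.1%, against 9.12%, and the YY1 motif AANATGGCG in 9, or 13.2%, against 2.51%. At least 1 of the 3 was found in 37 members, or 54.4%, against 16.0% of all promoters. Both strands were searched, matches of different motifs overlapped in 0 members' promoters, and these motifs were chosen after a first scan had been seen. No promoters of like expression or like share of G and C were set beside them, so whether the excess is particular to the members was not tested. A match describes letters and does not show that a factor binds.

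The factors themselves were measured and did not pass. Nrf1 was at 17.4 ± 1.21 FPKM in SE-BDEV, 17.6 ± 0.422 FPKM in CON-BDEV and 17.2 ± 0.973 FPKM in Vehicle (SD, n = 4 each). Gabpb1, a subunit of GABP, had the most negative value among them in SE-BDEV over Vehicle, −0.22 ± 0.067 (standard error; limma adjusted p = 0.167), with 22.5 ± 2.03 FPKM in SE-BDEV, 23.9 ± 1.36 FPKM in CON-BDEV and 26.3 ± 1.76 FPKM in Vehicle. Its SE-BDEV libraries all lay below its Vehicle libraries, in a comparison where 10.2% of all genes tested had groups that did not overlap. Its partner Gabpa had 0.041 in that comparison. Tfam, which packages and transcribes mitochondrial DNA, had 0.11 ± 0.034 in CON-BDEV over Vehicle (limma adjusted p = 0.109), and Ppargc1a, a coactivator of these genes in muscle and brown fat, was under the minimum of 1 FPKM in every group. Of 17 regulators tested in each comparison, 0 were called by limma, with 2, 4 and 0 at an unadjusted p under 0.05 in SE-BDEV over Vehicle, CON-BDEV over Vehicle and SE-BDEV over CON-BDEV, where 14.8%, 19.1% and 2.62% of all genes were. The authors' deposited tables were read for the members alone.

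Other genes of the pathway were counted from lists. Of 44 assembly factors tested in SE-BDEV against Vehicle and 45 in CON-BDEV against Vehicle, limma called 0, with 6 and 4 at an unadjusted p under 0.05, and of 77 mitochondrial ribosomal protein genes it called 0, with 11 and 15. Over all genes tested, 14.8% and 19.1% had such a p in these comparisons, and limma called 0.919% and 2.84%. Of 17 genes of the citric acid cycle, 4 had a higher and 13 a lower value than Vehicle in SE-BDEV, with a median of −0.027. The counts were the same in CON-BDEV, with a median of −0.018. The 1 called, Ogdh, a subunit of the oxoglutarate dehydrogenase, rose in CON-BDEV over Vehicle (0.17 ± 0.032, standard error; limma adjusted p = 0.0228). Ogdh had 0.18 ± 0.043 in SE-BDEV over Vehicle (limma adjusted p = 0.0902). The call of Ogdh was lost with no mean-variance trend, with 12 libraries in 1 fit and with the replicate block (limma adjusted p 0.0605, 0.0692 and 0.0831), and in 5 fits that left out 1 library each, CON-BDEV replicates 3 and 4 and Vehicle replicates 1 to 3 (0.0517 to 0.0826); without SE-BDEV replicate 2 it was called in SE-BDEV over Vehicle too (0.00863).

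Among 24 import genes, Timm9, a small chaperone of the intermembrane space, rose in both vesicle groups: it was at 50.03 ± 0.932 FPKM in SE-BDEV, 49.8 ± 1.17 FPKM in CON-BDEV and 41.4 ± 2.18 FPKM in Vehicle (limma adjusted p = 0.0178 and 0.0066 against Vehicle). The SE-BDEV call of Timm9 was lost with no filter on low values (limma adjusted p = 0.0607) and without Vehicle replicate 1, 2 or 3 (0.0652 to 0.0764), and its CON-BDEV call held under every alternative run. Hspa9, the chaperone that pulls proteins into the matrix, fell in CON-BDEV over Vehicle (−0.14; limma adjusted p = 0.0271) and had −0.16 in SE-BDEV over Vehicle (limma adjusted p = 0.181). That call of Hspa9 was lost with no filter, no trend, the replicate block and 12 libraries in 1 fit (limma adjusted p 0.0645, 0.0828, 0.0889 and 0.184), and in 6 fits that left out 1 library each, CON-BDEV replicates 3 and 4 and each Vehicle library (0.0540 to 0.0935); without SE-BDEV replicate 2 it was called in SE-BDEV over Vehicle (0.0229).

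Among 8 carriers of nucleotides and protons, Ucp2, a carrier of the inner membrane, fell to 147 ± 16.1 FPKM in SE-BDEV and 147 ± 12.6 FPKM in CON-BDEV, against 189 ± 7.89 FPKM in Vehicle. The limma adjusted p of Ucp2 was 0.0362 in SE-BDEV over Vehicle and 0.00732 in CON-BDEV over Vehicle. The SE-BDEV call of Ucp2 was lost with no filter (limma adjusted p = 0.109), with no trend (0.0710), without SE-BDEV replicate 3 (0.0671) and without any 1 Vehicle library (0.0958 to 0.125), and its CON-BDEV call held under every alternative run. In SE-BDEV over CON-BDEV limma called 0 genes of these lists, with 3 assembly factors, 1 import gene, 6 mitochondrial and 5 cytosolic ribosomal protein genes, and 0 genes of the cycle and carrier lists, at an unadjusted p under 0.05. Over all genes tested, limma called 0% in this comparison, and 2.62% had such a p. Of 80 cytosolic ribosomal protein genes, 74 had a lower value than Vehicle in SE-BDEV (median −0.067) and 74 in CON-BDEV (median −0.042), where 47 and 39 of the 82 members did. Over all genes tested, 45.4% and 48.0% were lower in these comparisons. Of the 80 genes, limma called 0 in SE-BDEV over Vehicle, with 32 at an unadjusted p under 0.05. All genes tested had shares of 0.919% called and 14.8% at such a p there. In CON-BDEV over Vehicle limma called 4 of the 80 (Rpl13a, Rpl28, Rpl4 and Rps20 fell), with 23 at such a p. The shares of all genes were 2.84% and 19.1% there. These 4 calls were lost with no filter, no trend, the replicate block and 12 libraries in 1 fit (limma adjusted p 0.0888 to 0.194). They were also lost without CON-BDEV replicate 3 (0.0709 to 0.107). Without any 1 Vehicle library Rpl28, Rpl4 and Rps20 were lost (0.0614 to 0.129), and Rpl13a without Vehicle replicate 2, 3 or 4 (0.102 to 0.137). In SE-BDEV over Vehicle Rpl13a was called without SE-BDEV replicate 2 (0.0440) and Rpl28 without SE-BDEV replicate 4 (0.0287).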

How the data were processed

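Polyadenylated RNA of 12 N2a libraries was sequenced with a kit that keeps the strand, per the labels' protocols. The authors deposited FPKM per gene and library and, for each comparison with Vehicle, Cuffdiff log2 fold changes, p-values and q-values, per the file headers. TopHat2, Cuffdiff and mm9 are named in the submitters' processing notes without versions. The sources used here name no annotation, filter or strand setting, so genes with processed pseudogenes or overlapping neighbours are uncertain. SE-BDEV and CON-BDEV stood in separate tables, each with Vehicle, whose columns differed between them by a median factor within 0.0336% of 1 per library.

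The test was two-sided, by limma 3.58.1 (R 4.3.3; moderated variances following a trend in the mean) on log2(FPKM + 1), over genes whose mean reached 1 FPKM, with Benjamini-Hochberg adjustment over all genes tested and a threshold of 0.05. This scale understates fold changes of low genes. Comparisons with Vehicle used the 8 libraries of 1 table; SE-BDEV against CON-BDEV used 12, with Vehicle as the mean of both tables. The fit was tested on simulated data. Depth was estimated from values up to 0.05 FPKM of genes with transcripts of 1500 to 8000 bases, each read as 1 fragment. Python 3.11.15 and matplotlib 3.10.9 made the figures.

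The members and lists were chosen with earlier results of these data known, so no p over a list is given. Named genes were the members past the threshold, the 3 highest and 3 lowest fold changes of each comparison, the highest and lowest member of each complex, paralogs, core subunits, regulators and called genes of the lists. Members whose groups do not overlap, those called without a library, Cox7c and Atp5k were chosen after their values were seen. Values of some single genes are not reported here. Alternatives changed the pseudocount, filter, scaling, trend, libraries in the fit and replicate block.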

Additional observations from a re-analysis of the deposited data

Results flagged for a closer look

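Each group of 4 libraries was screened for 1 library whose gap to the nearest of the others, as a share of the range, exceeds Dixon's 95% critical value. Of 243 groups screened, those below stood apart. Chance alone gives about 1 in 20, which is about as many as are listed. In SE-BDEV, Ndufa4 was high in replicate 4 (899 FPKM, the others 846 to 853) and Ndufv2 low in replicate 2 (80.2 FPKM, the others 91.2 to 92.9). In CON-BDEV, Cyc1 was high in replicate 1 (351 FPKM, the others 332 to 333) and Ucp2 low in replicate 4 (128 FPKM, the others 153 to 155). The ribosomal protein genes Rpl4 in replicate 2 (1317 FPKM, the others 1275 to 1278) and Rpl13a in replicate 3 (956 FPKM, the others 925 to 930) were high in CON-BDEV. In Vehicle, replicate 1 was low for Uqcrh (178 FPKM, the others 201 to 205), Hand2 (145 FPKM, the others 161 to 164) and Dbh (3.87 FPKM, the others 4.67 to 4.77), and high for Ndufs5 (138 FPKM, the others 124 to 126). Sdhc was high in Vehicle replicate 4 (131 FPKM, the others 123 to 124) and Tfb1m low in Vehicle replicate 2 (11.9 FPKM, the others 12.8 to 12.9).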

How the results depend on the processing

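Each comparison with Vehicle was refitted under 15 alternatives and SE-BDEV against CON-BDEV under 19. The count of members called was 0 in each, except with a library left out: it ranged from 0 to 1 in SE-BDEV against Vehicle (Atp5g3 without SE-BDEV replicate 2) and from 0 to 1 in CON-BDEV against Vehicle (Atp5h without CON-BDEV replicate 2). The count over all genes was less stable. In SE-BDEV against Vehicle it was 104, and 0 with no filter on low values (2021 at an unadjusted p under 0.05 in limma; the authors' deposited table called 140 at a q under 0.05), 171 with 12 libraries in 1 fit, 48 with the replicate block, and 5 to 315 with a library left out: 55, 315 and 50 without SE-BDEV replicates 1, 2 and 3, and 6, 5, 7 and 16 without Vehicle replicates 1 to 4. In CON-BDEV against Vehicle it was 321, and 176 with no filter, 183 with no mean-variance trend, 133 with 12 libraries in 1 fit, 135 with the replicate block, and 134 to 556 with a library left out: 556, 201 and 156 without CON-BDEV replicates 1, 3 and 4, and 134, 163, 140 and 161 without Vehicle replicates 1 to 4. The cause was not tested. In SE-BDEV against CON-BDEV limma called 0 genes under each alternative run, with 205 to 877 at an unadjusted p under 0.05; no Cuffdiff table of it was used here.

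Correlations across genes between same-numbered libraries were −0.12 to 0.30. For SE-BDEV and CON-BDEV they were 0.20, 0.30, −0.074 and −0.12 in replicates 1 to 4. They were not all over 0.1 in any pair of groups, so the numbers were not taken to pair samples. With the replicate block 0 members were called. By their library names SE-BDEV and CON-BDEV alternate and Vehicle comes last, and the part of this order in the values was not tested. Median scaling moved the members higher and lower to 33 and 49 in SE-BDEV over Vehicle and to 23 and 59 in SE-BDEV over CON-BDEV, so the split of the last comparison depends on the scaling. The medians of the complexes moved by more than the spread between libraries in 0 of 245 alternatives. With the median level of the members, which can fall on another gene in each library, in place of the mean level, 6 of 15 differences between groups for a complex moved by more than that spread. With the median of the members' own differences from Vehicle, an alternative chosen after seeing the data, 1 of 15 did: complex III had −0.049 in SE-BDEV over Vehicle, and complex IV had −0.020 in SE-BDEV and −0.0020 in CON-BDEV over Vehicle. The medians over all 82 members lay between −0.026 and 0.0028 in SE-BDEV over Vehicle and between −0.0072 and 0.018 in CON-BDEV over Vehicle, so their sign turned with the library left out. Of 3758 alternatives of single named genes, 184 had the other sign, none of them called. Depth limits the members under 10 FPKM.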
